A study of Mus musculus with 30 samples.

Results

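A set of 1049 open chromatin regions of mouse male germ cells was described here: those listed in pachytene spermatocytes and again in round spermatids, and listed in neither of the earlier spermatogonial stages. They were chosen from the authors' peak lists. All peaks of the 4 lists on chromosomes 1 to 19 were merged wherever they overlapped by at least 1 bp, which gave 113894 union regions. A union region was taken when it held a peak of both later lists and no peak of either spermatogonial list. The 1049 regions made up 0.921% of all union regions, 7.17% of the 14635 pachytene regions without a spermatogonial peak, 23.8% of the 4406 regions shared by both later lists and 21.2% of the 4944 regions of the spermatid list. These shares follow from the way the regions were chosen and are given as a description. The regions are called pacSC/rST regions below.

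The data came from ATAC-seq of testicular germ cells of C57BL/6 mice, in which the transposase Tn5 cuts accessible DNA and the fragments are sequenced. Primitive type A spermatogonia (PriSG-A, 3 libraries) came from 6-day-old mice, type A spermatogonia (SG-A, 3 libraries) from 8-day-old mice, and pachytene spermatocytes (pacSC, 2 libraries) and round spermatids (rST, 2 libraries) from adults. The strain was the same in all groups, and no treatment or engineered allele is named. How each stage was purified was not given in the sources used here, nor was the number of animals per library. The authors gave 1 peak list for all libraries of a stage. On chromosomes 1 to 19 the lists held 54413, 85773, 32902 and 6233 peaks. With 1 list per stage there is no replicate value, no difference between stages could be tested, and how deeply each stage was sequenced is unknown. A region missing from a list may be closed or may have fallen below the authors' threshold. In these bulk samples, a smaller share of cells with the region open cannot be told apart from weaker opening in each cell. Intervals below are 95% intervals for counting error only, from Wilson's method for shares, from order statistics for medians and from the Poisson distribution for densities. They treat neighbouring regions as independent.

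In pachytene, the long stage of meiotic prophase in which homologous chromosomes are paired and recombine, male germ cells switch on many genes that spermatogonia do not use. Round spermatids are the haploid cells that follow the meiotic divisions. They transcribe genes for the acrosome and the sperm tail before histones are replaced by protamines and the nucleus is condensed. Both meiotic divisions lie between these stages, and no stage between them was measured here. The positions in the lists did not match the assembly for which gene annotation and promoter sequences were at hand. No region is named by a gene, no sequence is printed, and the cell types were not checked against marker genes. Positions are given as chromosome, start and end as the lists have them, counted from 1.

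Each peak carries a signal value, which in these lists is an area over the peak and grows with its width, and a −log10 q. Both are the authors' values, and they took part in deciding which peaks were listed. Their levels in pacSC/rST regions are therefore described and not tested. Where a region held more than 1 peak of a list, the signal values were added, and width, summit and rank are those of the strongest peak.

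In pacSC, most pacSC/rST regions had a peak wider than the median peak of the list. The strongest pacSC peak had a median width of 285 bp (interval 266 to 303), with 57 bp as the narrowest and 2418 bp as the widest, against a median of 188 bp over the whole pacSC list. The rST peak was narrower, at a median of 169 bp (154 to 187), from 53 to 2426 bp, against 183 bp over the whole rST list. Peaks over 1000 bp were found in 57 regions in pacSC and in 12 in rST. Peaks of 100 bp or less were found in 116 regions in pacSC and in 278 in rST. The pacSC signal value ran from 20.2 over a median of 203 (182 to 225) to 5707. The rST signal value ran from 20.0 over a median of 77.4 (71.3 to 84.6) to 6934. Ranked within their own lists, the members stood at a median percentile of 64.8 in pacSC and 50.6 in rST.

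The pacSC/rST regions lay between the comparison groups in pacSC strength. The 13586 regions listed in pacSC alone had a median width of 107 bp (105 to 109) and a median pacSC signal value of 52.6 (51.7 to 53.6). The 3187 regions listed at all 4 stages had a median pacSC peak width of 867 bp (850 to 886) and a median pacSC signal value of 1453 (1416 to 1510). In rST the gap to the regions of all 4 stages was smaller than in pacSC, though the intervals did not overlap. The median rST peak width there was 244 bp (235 to 251) and the median rST signal value 125 (120 to 133). A pacSC −log10 q of at least 5 was reached by 94 of 1049 pacSC/rST regions, or 8.96% (7.38 to 10.8), against 12.1% of all union regions in pacSC. An rST −log10 q of at least 5 was reached by 7, or 0.667% (0.324 to 1.37), against 3.09% of all union regions in rST. The share with strong peaks was thus below that of the whole list in both stages.

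**Figure D1:**
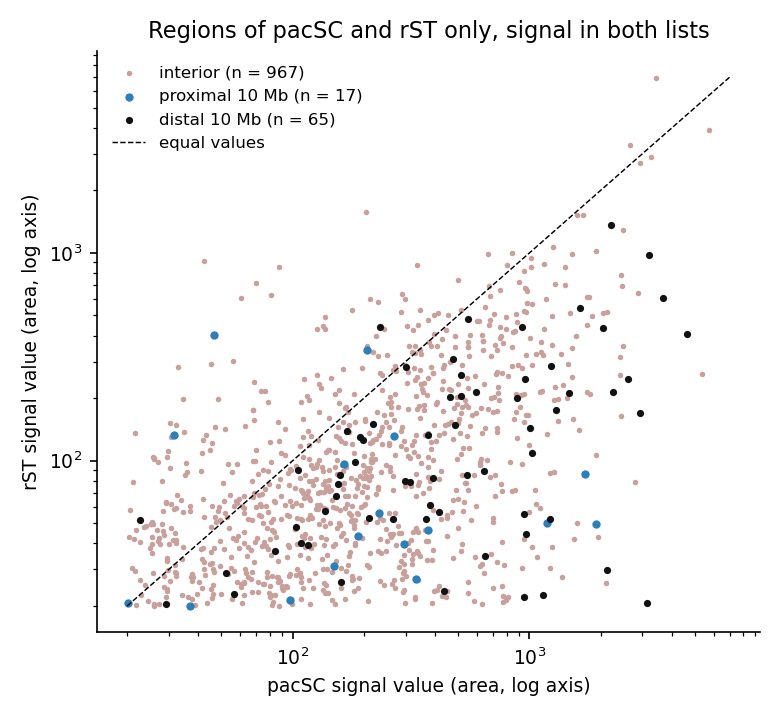
Signal value of each of the 1049 pacSC/rST regions in pacSC (x, area, log axis) and rST (y, area, log axis), with 967 interior, 65 distal and 17 proximal regions in separate colours. Most points lie under the dashed line of equal values, 201 lie above it, and the cloud is wide at every pacSC value.

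Signal in the 2 lists was loosely related across the regions. Spearman's rho between the pacSC and rST signal values was 0.492 over 1049 regions, as a description, since both values grow with peak width and both lists end at a signal value near 20.0. The rST value was a median of 47.2% of the pacSC value (44.1 to 50.4), with an interquartile range of 23.2% to 84.9%. The 2 lists were scaled separately, so these percentages compare lists and not amounts of open chromatin. The rST value was above the pacSC value in 201 regions, or 19.2% (16.9 to 21.7), against 9.33% of all union regions that held both peaks. That comparison does not hold the pacSC value alike, and the order was not kept within classes of it, as given below. The rST peak lay wholly inside the pacSC peak in 555 regions (52.9%, 49.9 to 55.9) and was the wider of the pair in 270 (25.7%, 23.2 to 28.5). The share with a higher rST than pacSC signal value fell with pacSC strength. Of the 263 regions of lowest pacSC signal value (20.2 to 87.0), 126 had a higher rST than pacSC value, and of the 262 regions of highest value (493 to 5707) 8 had.

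Set against regions listed at all 4 stages at like pacSC strength, pacSC/rST regions had the higher median rST signal value in the stronger classes and the lower one in the weakest. Among regions with a pacSC signal value over 400 and up to 800, the median rST value was 162 in 164 pacSC/rST regions (interquartile range 65.3 to 292) and 85.9 in 417 regions of all 4 stages (38.1 to 179). Over 800 and up to 1600 it was 222 in 102 pacSC/rST regions (101 to 439) and 104 in 926 regions of all 4 stages (46.8 to 234). Over 1600 it was 441 in 42 pacSC/rST regions (180.1 to 760.3) against 218 in 1429 (85.1 to 495). The interquartile ranges overlapped in each of these classes. Over 100 and up to 200 the medians were close, at 67.3 in 223 pacSC/rST regions and 66.2 in 120 regions of all 4 stages. Below that the order was the other way, with 47.6 in 155 against 65.2 in 52 for a pacSC value over 50 and up to 100, and 41.8 in 140 against 80.1 in 49 up to 50. An rST value above the pacSC value was also rarer in pacSC/rST regions in these weak classes. Up to 50 it was found in 63.6% (55.3 to 71.1) against 89.8% (78.2 to 95.6), over 50 and up to 100 in 27.1% (20.7 to 34.6) against 46.2% (33.3 to 59.5), and over 100 and up to 200 in 13.5% (9.59 to 18.6) against 25.0% (18.1 to 33.4). The intervals of these shares overlapped in every class but that up to 50. In the classes over 200 the order was mixed. The pacSC/rST share was the higher over 200 and up to 400 (13.5% against 10.3%) and over 1600 (4.76% against 1.47%). It was close to the other over 800 and up to 1600 (1.96% against 1.84%). Over 400 and up to 800 it was the lower (3.66% against 6.95%). Every region in this comparison had to be listed in rST to enter it.

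The summit, the point of highest signal within a peak, took no part in choosing the regions. Summits of the pacSC and rST peak lay a median of 24 bp apart (22 to 28), with an interquartile range of 8 to 74 bp and the farthest pair 1129 bp apart. They were within 50 bp in 711 of 1049 regions, or 67.8% (64.9 to 70.5). In regions of all 4 stages the median distance was 50 bp (47 to 55), and 50.1% (48.4 to 51.8) had summits within 50 bp. The widths of the peaks differed between the groups. In pacSC/rST regions a pacSC and an rST peak had to overlap, while in regions of all 4 stages spermatogonial peaks could join peaks that did not. The part of either in this difference was not tested. At a pacSC signal value over 800 and up to 1600, where the median widths were 811.5 and 797.5 bp in pacSC and 316 and 206 bp in rST, summits were within 50 bp in 62.7% (53.1 to 71.5) of pacSC/rST regions and 50.6% (47.4 to 53.9) of regions of all 4 stages. Over 400 and up to 800 the shares were 62.2% (54.6 to 69.3) and 48.7% (43.9 to 53.5). Over 1600 they were 61.9% on 42 regions, with a lower bound of 46.8%, against 49.1% (46.5 to 51.7). The share was higher in pacSC/rST regions in all 7 classes of pacSC signal value, and the intervals overlapped in 4 of them: over 50 and up to 100, over 200 and up to 400, over 800 and up to 1600, and over 1600.

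**Figure D2:**
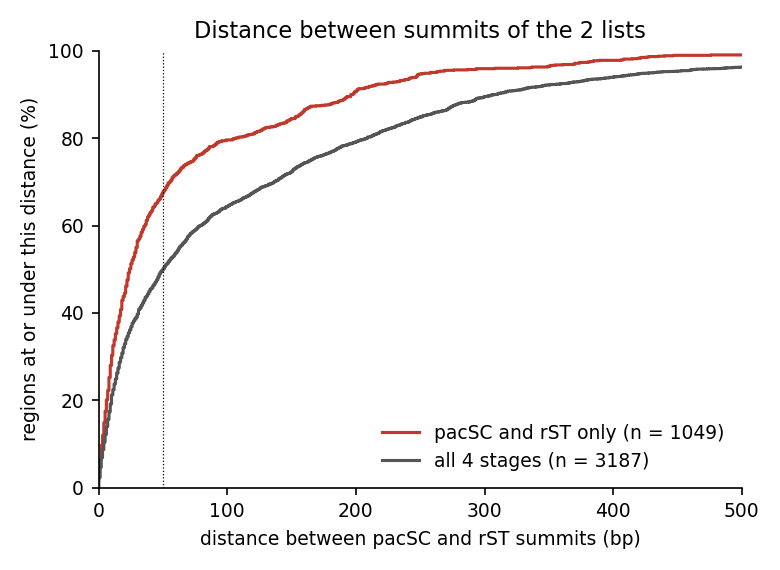
Share of regions (y, percent) whose pacSC and rST summits lie at or under a given distance (x, bp), for pacSC/rST regions and regions of all 4 stages, with a dotted line at 50 bp. At that line the curves stand at 67.8% and 50.1%, and the axis is cut at 500 bp.

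The strongest regions were examined singly. The 10 regions of highest rST signal value, the 10 of highest pacSC value and the 5 of widest rST peak made up 16 regions, of which 4 were among the 10 of both lists. In 13 of the 16 each list had a single peak. As a description, 5 members stood among the first 100 rST peaks by signal value and 44 among the first 500. Among the first 500 pacSC peaks stood 3. For comparison, the members made up 21.2% of the 4944 union regions in rST and were 1049 of the 29008 in pacSC. These figures count union regions, while the ranks count peaks.

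The 4 regions high in both lists were broad and similar in extent at both stages. The region with the highest rST value, chr3:133014307-133016732, had a signal value of 3425 in pacSC and 6934 in rST, where it ranked 27th of all peaks on chromosomes 1 to 19. Its pacSC peak was 2351 bp wide and its rST peak 2426 bp, with summits 2 bp apart. The nearest PriSG-A peak was 17412 bp away and the nearest SG-A peak 36597 bp. It was the only one of the 4 with more signal in rST than in pacSC. The region with the highest pacSC value was chr3:48189002-48191062, at 5707 in pacSC (2061 bp) and 3897 in rST (2032 bp). Its summits lay 419 bp apart, a PriSG-A peak lay 465 bp from its edge, and the nearest SG-A peak was 221347 bp away. At chr5:53425482-53427309 the signal value was 3253 in pacSC and 2883 in rST, and at chr2:65633245-65635046 it was 2936 in pacSC and 2701 in rST. Summits were 20 bp apart in the former and 540 bp in the latter.

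In the other regions of high rST value, the rST value was 61.5% or more of the pacSC value. At chr9:75738552-75739556 the rST value of 3315 exceeded the pacSC value of 2669.5, over peaks of 988 and 1005 bp, and this region had the highest rST signal per bp of the set, at 3.36. At chr18:13455001-13456857 a single rST peak of 1857 bp with a signal value of 1576 spanned a pair of pacSC peaks that together reached 203. It showed the widest gap in favour of rST among the strong regions, with 776% of the pacSC value. The nearest SG-A peak lay 6798 bp away. Nearly equal values were found at chr19:35879747-35880666, with 1593 in pacSC and 1518 in rST, and at chr2:45943343-45944333, with 1682 and 1514. The former lay 123301 bp from the nearest spermatogonial peak. The last pair, chr13:113501440-113502727 (2216 in pacSC, 1363 in rST) and chr8:68435385-68436152 (1261 in pacSC, 1072 in rST), had summits 193 and 153 bp apart.

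The regions of high pacSC value that were not among the highest in rST had 30.5% or less of that value in rST, over narrower peaks. At chr14:66242915-66245332 the pacSC peak of 2418 bp had a signal value of 5333, and the stronger of its 2 rST peaks was 582 bp wide with a signal value of 186. At chr14:120749209-120750178, which had the highest pacSC signal per bp of the set (4.75), the values were 4607 in pacSC and 405 in rST. At chr19:54083501-54084349 they were 3191 and 973. A pair of regions on chromosome 3 lay 382879 bp from each other. The first, chr3:156473846-156475251, had 3667 in pacSC and 348 in the stronger of 2 rST peaks. The second, chr3:156858131-156859625, had 2932 in pacSC and 171 in rST, with summits 10 bp apart. The extreme was chr2:179800735-179802499, with 3149 in pacSC over 1765 bp and 20.6 in rST over 354 bp, which is close to the lowest value listed. Its summits were 708 bp apart. Of the 10 regions of highest pacSC value, 5 lay in the distal 10 Mb of their chromosome, against 1 of the 10 of highest rST value.

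Position along the chromosome also took no part in choosing the regions. Coordinates of mouse autosomes count up from the centromere, so the low end is called proximal here and the high end distal. Chromosome ends were taken as the first and last listed peak of any stage. In the distal 10 Mb lay 65 of 1049 pacSC/rST regions, or 6.20% (4.89 to 7.82), and in the proximal 10 Mb 17, or 1.62% (1.01 to 2.58). Each zone made up 7.87% of the listed span. Of the regions in pacSC alone, 39.9% (39.1 to 40.8) were distal and 10.2% (9.65 to 10.7) proximal. Of the regions of all 4 stages, 10.7% (9.64 to 11.8) were distal and 5.87% (5.10 to 6.74) proximal. The pacSC/rST regions had the lowest share of the 3 groups in both zones. The distal share was below that of regions in pacSC alone on 19 of 19 chromosomes and below that of regions of all 4 stages on 15. With each list, the spermatogonial ones included, held to its 6233 peaks of highest signal value, 575 regions met the rule. They can include regions outside the 1049, whose weaker spermatogonial peaks were cut. Their distal share was 17.2% (14.4 to 20.5). That is above the 7.87% of the listed span, where the main share was below it. Shares of the comparison groups were not recomputed at this setting.

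**Figure D3:**
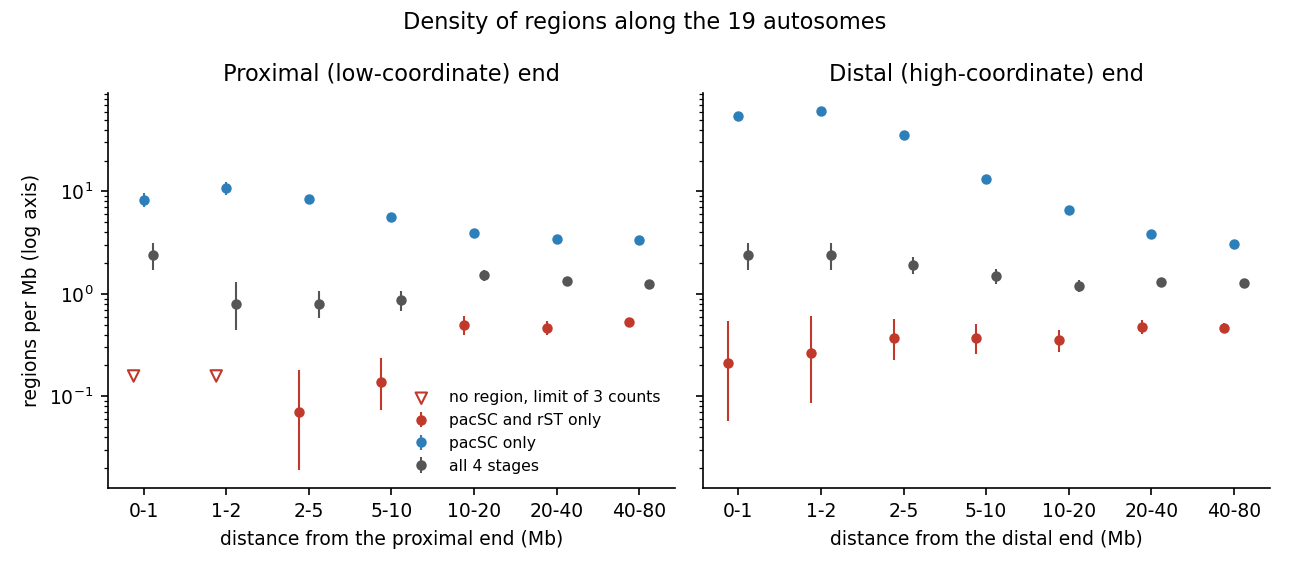
Regions per Mb (y, log axis) by distance from the proximal (left) and distal end (right) of 19 autosomes, for pacSC/rST regions, regions in pacSC alone and regions of all 4 stages. Points are densities with 95% Poisson intervals, and open triangles mark bins with no region at the limit of 3 counts. Towards the distal end the regions in pacSC alone climb to 60.3 per Mb while the pacSC/rST regions stay at or below 0.476.

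The density of both kinds of pacSC regions without a spermatogonial peak was followed along the chromosomes. Regions in pacSC alone rose from 3.04 per Mb at 40 to 80 Mb from the distal end to 13.1 at 5 to 10 Mb and 60.3 between 1 and 2 Mb. The pacSC/rST regions numbered 0.466 per Mb at 40 to 80 Mb (0.418 to 0.518), 0.368 at 5 to 10 Mb (0.257 to 0.512) and 0.263 between 1 and 2 Mb (0.0854 to 0.614). At the proximal end their density was 0.495 per Mb at 10 to 20 Mb (0.400 to 0.605), 0.137 at 5 to 10 Mb (0.0729 to 0.234) and 0.0702 at 2 to 5 Mb (0.0191 to 0.180). In the first 2 Mb of the listed span there was none, which by the limit of 3 counts allows up to 0.158 per Mb in each of the 2 bins of 1 Mb. Regions in pacSC alone were denser near the proximal end than farther in, at 8.46 per Mb between 2 and 5 Mb and 3.89 between 10 and 20 Mb.

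Among pachytene regions without a spermatogonial peak, listing in rST depended on position at every level of pacSC signal. In the interior, outside both zones, 967 of 7749 such regions were also in rST, or 12.5% (11.8 to 13.2). In the distal zone 65 of 5490 were, or 1.18% (0.930 to 1.51), and in the proximal zone 17 of 1396, or 1.22% (0.762 to 1.94). The share rose with pacSC strength in the interior and distal zones, and the distal share stayed far lower. At a pacSC signal value over 200 and up to 400, 28.7% (25.5 to 32.1) of 717 interior regions and 2.74% (1.53 to 4.83) of 402 distal regions were also in rST. Over 800 and up to 1600 the shares were 62.4% (54.2 to 70.0) of 141 and 9.56% (5.67 to 15.7) of 136. Over 1600 they were 80.6% (65.0 to 90.2) of 36 and 18.3% (10.6 to 29.9) of 60. In the class of 800 to 1600 the median pacSC width was 816 bp in the interior and 894 bp in the distal zone, and the median −log10 q was 4.92 and 5.07. Applied class by class, the interior shares would have given 678 distal regions, and the 65 found were 9.58% of that. With classes of −log10 q, which does not add up over the width of a peak, the figure was 9.81%. At equal list length, with the spermatogonial lists cut too, the shares were 41.1% in the interior and 11.6% in the distal zone.

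**Figure D4:**
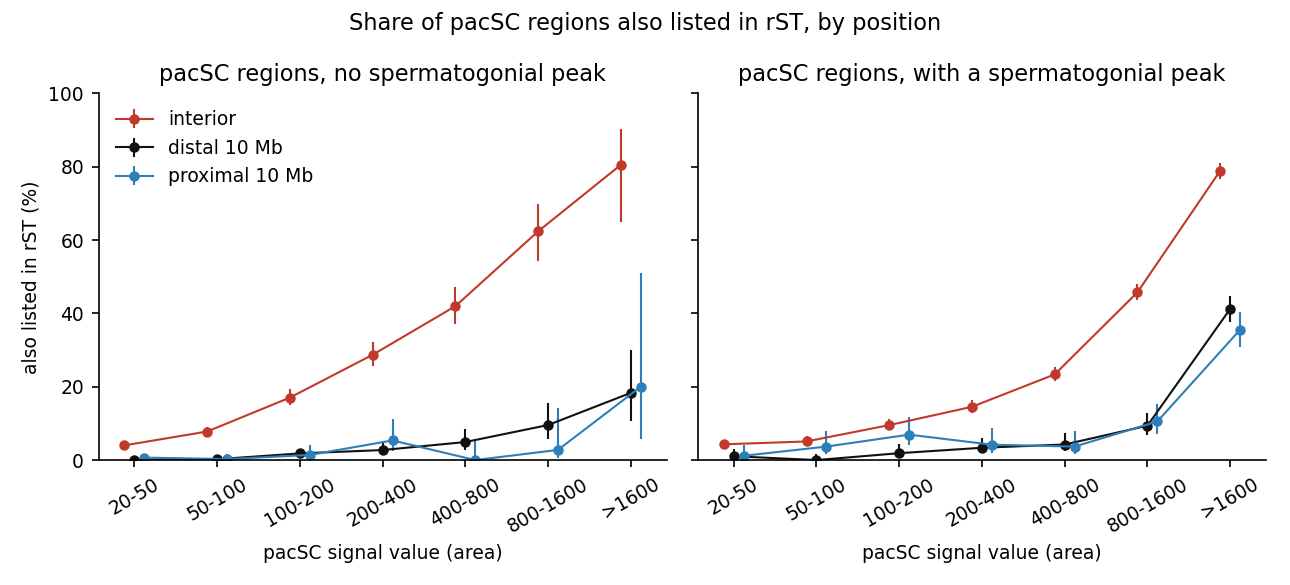
Share of pacSC regions also listed in rST (y, percent) by class of pacSC signal value (x, area), for interior, distal and proximal regions, without (left) and with (right) a spermatogonial peak. Points are shares with 95% Wilson intervals. On the left the interior curve climbs to 80.6% and the distal curve to 18.3%, and on the right to 78.9% and 41.2%.

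A lower distal share was also found among pacSC regions that did have a spermatogonial peak, with a smaller gap to the interior. The difference between the gaps was not tested. Of those with a pacSC signal value over 800 and up to 1600, 45.8% (43.6 to 48.0) were in rST in the interior and 9.37% (6.78 to 12.8) in the distal zone. Over 1600 the shares were 78.9% (76.6 to 81.1) and 41.2% (37.6 to 44.9). Over all classes, 354 distal regions with a spermatogonial peak were in rST, which was 40.4% of the 876 that interior shares would have given. The figure without a spermatogonial peak was 9.58%. These totals weigh the classes differently: the class over 1600 held 706 distal regions with a spermatogonial peak and 60 without. Distal shares with and without one were 9.37% and 9.56% over 800 and up to 1600, and 41.2% and 18.3% over 1600. Over all interior regions, those without a spermatogonial peak were less often in rST than those with one, at 12.5% against 26.6% (25.8 to 27.5), and they were weaker in pacSC. Up to a pacSC signal value of 50 the shares were 4.01% (3.40 to 4.73) and 4.29% (3.34 to 5.51). In the interior, at a pacSC signal value over 200 and up to 400, regions without a spermatogonial peak were listed in rST more often than those with one (28.7% against 14.5%, 12.8 to 16.4). The order was the same over 800 and up to 1600 (62.4% against 45.8%), and over 1600 the intervals overlapped (80.6% against 78.9%).

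The 65 distal pacSC/rST regions were stronger in pacSC than the 967 interior ones, while the intervals of their rST values overlapped. Their median pacSC signal value was 473 (312 to 648) against 192 (173 to 213), and their median pacSC peak width was 477 bp (417 to 605) against 277 bp (259 to 296). Their median rST signal value was 90.3 (67.3 to 149) against 76.5 (70.9 to 84.4). The rST value exceeded the pacSC value in 2 of 65 distal regions and in 195 of 967 interior ones. Distal regions made up 1.90% of the 263 pacSC/rST regions of lowest pacSC signal value and 11.8% of the 262 of highest. They were unevenly spread over chromosomes. Chromosomes 3 (14 regions), 14 (13), 13 (9), 17 (9) and 19 (7) held 52 of the 65, and 9 of 19 chromosomes had none.

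Chromosomes differed in how many pacSC/rST regions they carried. Density was highest on chromosomes 18 (0.695 per Mb, 61 regions), 16 (0.672, 64 regions) and 15 (0.628, 63 regions), and lowest on chromosomes 9 (0.182, 22 regions), 7 (0.194, 29 regions) and 11 (0.219, 26 regions). Chromosomes 3 (93 regions) and 1 (92 regions) held the most. Across the 19 chromosomes, as a description of points that share the same lists, density ran with that of regions in pacSC alone (Spearman's rho 0.630). It also ran with that of regions of all 4 stages (rho 0.442), which hold spermatogonial peaks too. It ran against that of regions in both spermatogonial lists alone (rho -0.653). The share of interior pacSC regions without a spermatogonial peak that were also in rST ran from 4.93% on chromosome 9 to 21.3% on chromosome 4. The distal share was below the interior share on 19 of 19 chromosomes, and it was highest on chromosome 14, at 4.19%.

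**Figure D5:**
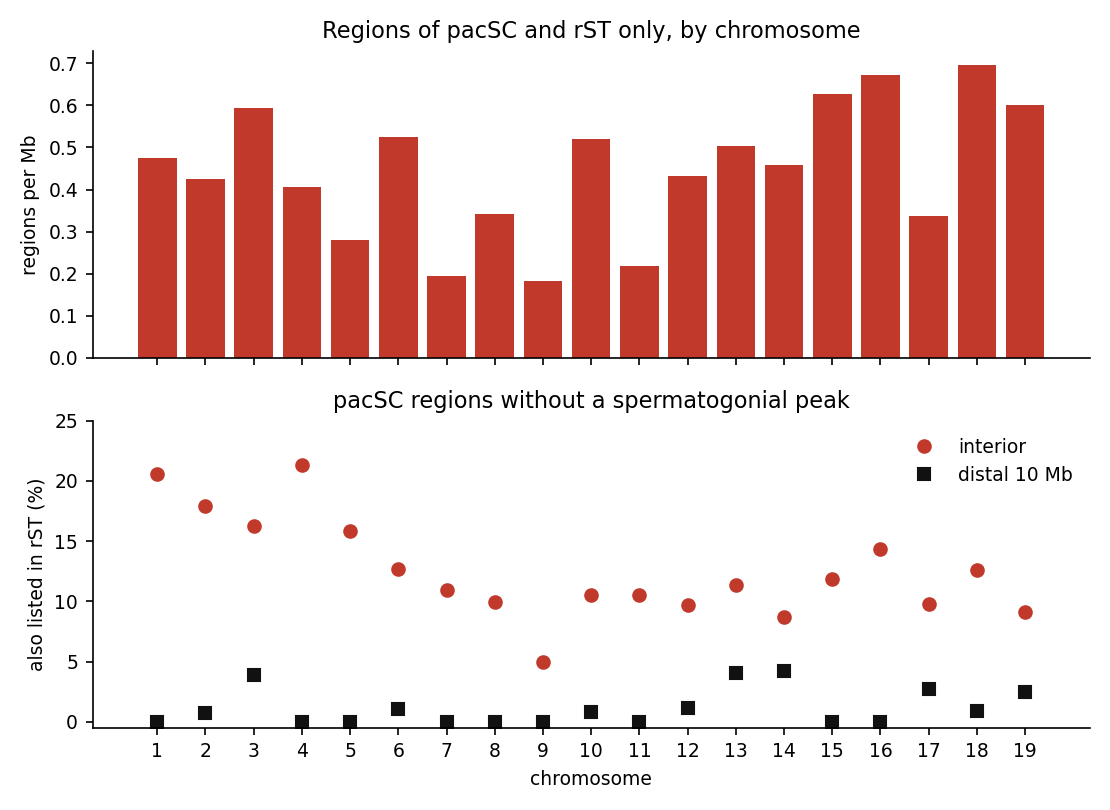
Top, pacSC/rST regions per Mb of listed span (bars from 0) on each autosome. Bottom, share of pacSC regions without a spermatogonial peak also listed in rST (percent), for interior (circles) and distal regions (squares). Every square lies below its circle, and no square exceeds 4.19%.

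Most pacSC/rST regions stood apart from others of the set, while 20.7% had one within 10 kb. The nearest other region of the set was a median of 270678 bp away (244569 to 308442), against 4740 bp (4081 to 5360) among regions in pacSC alone, and 164848 bp (152998 to 175313) among regions of all 4 stages. Both comparison groups have more regions, 13586 and 3187 against 1049, which by itself shortens such distances. Another of the set lay within 10 kb for 217 regions, or 20.7% (18.3 to 23.2). Most of these were close pairs: joined at 10 kb, the 1049 regions formed 937 groups, of which 832 had 1 region, 99 had 2 and 6 had 3 or more. When peaks up to 500 bp apart were merged from the start, 913 regions remained and 2.41% had another within 10 kb. The largest group held 4 regions over 5954 bp, at chr8:31292291-31298244.

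Of 2426 windows of 1 Mb, 645 held a pacSC/rST region, and 384 of these held 1. The fullest was chr8:31000001-32000000, with 7 regions in 3 groups. Their signal values ran from 21.0 to 550.1 in pacSC and from 30.6 to 248 in rST, so none was among the strong regions above. That window held 13 regions with a pacSC peak and 7 with an rST peak, against 5 with a PriSG-A peak and 3 with an SG-A peak, and every rST region in it was a pacSC/rST region. Next came 4 windows with 6 regions each. In chr15:47000001-48000000 all 6 rST regions were pacSC/rST regions, among 12 pacSC regions. In chr16:46000001-47000000 it was 6 of 9 rST regions, in chr3:154000001-155000000 6 of 8, and in chr11:37000001-38000000 6 of 7. The last of these had 5 separate groups and 3 SG-A regions. These windows were picked for their number of pacSC/rST regions, so high shares among their rST regions follow from that choice. Over all 4944 rST regions the share was 21.2%.

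Most pacSC/rST regions lay well away from any spermatogonial peak. The nearest peak of either spermatogonial list was a median of 23786 bp away (21159 to 26541), against 12140 bp (11690 to 12563) for regions in pacSC alone. Within the interior the medians were 23913 bp (21430 to 27131) and 15034 bp (14416 to 15962). None lay within 100 kb for 121 pacSC/rST regions, or 11.5% (9.74 to 13.6), against 5.56% (5.18 to 5.96) of regions in pacSC alone. The 3 most isolated were all on chromosome 15. The region chr15:69928960-69930098, with a signal value of 960 in pacSC and 681 in rST, was 832202 bp from the nearest spermatogonial peak. Its neighbour chr15:69761924-69762603 (238 in pacSC, 257 in rST) was 665166 bp away, and chr15:29058019-29058441 (396 in pacSC, 148 in rST) 464893 bp. The nearest region of all 4 stages was also far, at a median of 402582 bp (367804 to 430608), against 298786 bp (291247 to 304772) for regions in pacSC alone. Neither this comparison nor that of the shares beyond 100 kb holds zone alike, and the groups differed in their distal share.

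Few regions owed their place to a narrow margin of overlap. The pacSC and rST peaks overlapped by a median of 142 bp and by under 50 bp in 13 regions. The smallest overlap was 3 bp, at chr8:31828288-31828510, with 82.6 in pacSC and 45.9 in rST. A spermatogonial peak lay within 100 bp of 15 regions and within 1 kb of 76. The closest was 11 bp away, at chr16:76292483-76292748 (73.4 in pacSC, 60.5 in rST) and at chr6:103647593-103647834 (96.6 in pacSC, 54.3 in rST). Just outside were regions that touched a spermatogonial peak by a few bases: of 3357 regions with pacSC, rST and spermatogonial peaks, 6 shared under 50 bp with the latter. The smallest overlap was 3 bp, at chr6:22898474-22899157 (321 in pacSC, 48.2 in rST). A stronger one, with 15 bp, was chr12:96152400-96154771, with 1329 in pacSC and 1109 in rST. On the spermatid side, 470 regions in pacSC alone had an rST peak within 1 kb that did not overlap them.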

How the data were processed

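The deposited ATAC-seq peak lists, 1 per stage, were used, and the Hi-C and ChIP-seq samples of the series were not analysed here. The PriSG-A list was assigned from the labels and because the other 3 lists match the other stages, since its deposited name is garbled. Bowtie2 2.2.5, Bowtie and SAMtools are named without a role in the submitters' processing notes. The sources used here do not give the peak caller, its settings, the joining of replicates or any Tn5 shift. The authors' deposited score equals 1000 times the signal value over the peak width, capped at 1000, for 100% of peaks within a tolerance of 1, so the authors' deposited signal value is an area. The deposited −log10 q is the authors' own per peak, and the summit offset (bp) is other information of the deposited lists.

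The processing notes name mm10, but peaks run past the last GRCm38 gene on 10 of 19 autosomes, by up to 7.20 Mb on chromosome 7. The positions are therefore not on that assembly. They were not converted, and planned promoter, gene list and motif results were left out.

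Union regions, distances and shares were computed in Python 3.11.15 with pandas 2.3.3 and scipy 1.17.1, after checking the interval functions on simulated data against a base-by-base count. Regions named singly are the 10 of highest rST and of highest pacSC signal value, the 5 of widest rST peak, those at the edges of the rule and the fullest windows of 1 Mb (4 tied behind the first, and all are given). The most isolated regions were named after their values were seen. The regions and the choices above were made with earlier results of these data known, and the signal classes, the zone comparison and the isolation of regions were chosen after seeing the data. No column of per-sample values was left aside (0).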

Additional observations from a re-analysis of the deposited data

How the results depend on the processing

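Comparisons between lists are limited by the unknown depth of sequencing. No paired analysis was possible because replicates were joined into a single list per stage, and no replicate could be left out for the same reason. The planned promoter, gene and motif alternatives were not run. Of 69 values from other settings, 19 kept to the interval of the main value (for a count of regions, 1.5 times it) and 50 moved. Under the 6 settings for which interior and distal listing in rST was recomputed, the interior share was the higher, but with a −log10 q of 5 in pacSC and rST only their Wilson intervals overlapped (1.99 to 10.4% and 0 to 2.71%). Zones of 5 or 20 Mb were not run for these shares. Limits for a count of 0 below are those of 3 counts, not Wilson bounds. Fewer peaks enter shorter lists, and why values moved was not tested. Where the spermatogonial lists were cut too, regions outside the main set could meet the rule. Joining members at most 10 kb apart (added after seeing the data) left the distal and proximal shares within the main interval.

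When peaks under a −log10 q of 5 were dropped from all 4 lists, 7 regions met the rule, 5.26% of those shared by pacSC and rST. Some of the 7 met it only because spermatogonial peaks were dropped, as 5 did with those lists whole. The 7 had median widths of 991 bp in pacSC and 910.0 bp in rST, and summits a median of 7 bp apart. Of the 7, 0 were distal, proximal or within 10 kb of another, which allows up to 42.9%. Of interior pacSC regions without a spermatogonial peak at that threshold 3.38% were in rST, and of 270 distal ones 0, which allows up to 1.11%. With that threshold in pacSC and rST only, the spermatogonial lists were kept whole and 5 regions were left (3.76%). Their median widths (991 and 910.0 bp) and summit distance (7 bp) were the same. Of the 5, 0 were distal, proximal or within 10 kb of another, which allows up to 60%. The interior share was 4.63%, and the distal one 0 of 138, which allows up to 2.17%.

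With a reciprocal overlap of 50% there were 648 regions, 38.4% of those shared, 4.78% distal, with median widths of 222 bp in pacSC and 211.5 bp in rST, and 13.7% within 10 kb of another. The interior and distal shares in rST were 7.86% and 0.565%. With lists of equal length there were 575 regions (20.9%), 17.2% distal, with median widths of 749 and 213 bp, summits 29 bp apart and 2.78% within 10 kb of another, and the shares in rST were 41.1% and 11.6%. With no spermatogonial peak within 1 kb the share of shared regions was 22.1% and the interior share in rST 13.6%. With peaks up to 500 bp apart merged, the regions were 21.7% of those shared, with a median pacSC width of 304 bp, summits 31 bp apart and 2.41% within 10 kb of another, and the shares in rST were 16% and 1.70%. A distal zone of 5 or 20 Mb held 2.86% or 12.6%, a proximal zone of 5 or 20 Mb held 0.381% or 10.6%, and 31.2% had another member within 100 kb.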

Other observations

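The sex chromosomes were outside the set described above. On X, 1 of 119 pacSC regions without a spermatogonial peak was also in rST, or 0.840% (95% Wilson interval 0.148 to 4.61), against 7.17% on the autosomes. The region was chrX:89958303-89958398, 96 bp wide. The comparison with the autosomes does not hold pacSC signal value or zone alike, and the autosomal share varied with both. On Y there were 5 pacSC regions without a spermatogonial peak, too few for a share.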
